A study of Mus musculus with 2 samples.

Results

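The CC chemokine ligands studied here are the 10 genes *Ccl2*, *Ccl7*, *Ccl12*, *Ccl8*, *Ccl3*, *Ccl4*, *Ccl6*, *Ccl9*, *Ccl24* and *Ccl17*, taken by symbol from the 31053 genes counted in adipose tissue macrophages (ATMs). All 10 had unique molecular identifiers (UMIs, tags that each stand for 1 captured transcript) in both libraries. They were compared between mice kept on control diet (CD) and mice fed a high fat diet (HFD) overnight, and across 7 populations of cells set by their marker genes. After HFD *Ccl8* was 10.8-fold lower, *Ccl7* and *Ccl24* were lower by 1.98-fold and 1.89-fold, and *Ccl6*, *Ccl9* and *Ccl3* were higher by 1.42-fold to 1.55-fold.

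CC chemokines are small secreted proteins, named for a pair of neighbouring cysteines, that bind G-protein-coupled receptors on leukocytes and draw these cells along a gradient. Ccl2, Ccl7 and Ccl12 act on CCR2 and recruit monocytes, Ccl8 of the mouse acts mainly on CCR8, Ccl3, Ccl6 and Ccl9 act on CCR1, Ccl4 is a close relative of Ccl3, Ccl24 acts on CCR3 of eosinophils, and Ccl17 acts on CCR4 of T cells. In adipose tissue, macrophages are a main source of Ccl2, and CCR2 is needed for the entry of monocytes in obesity.

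Both libraries came from the epididymal fat of male C57/BL6 mice, adult by the study's methods, with no genetic change or further treatment named. The CD library pooled 3 mice that stayed on control diet and the HFD library pooled 3 mice given the HFD from late afternoon to the next morning. Fat was digested with collagenase and CD45+Lin-Ly6Clow/-F4/80+ cells were sorted, a gate that removes T cells, B cells, eosinophils, neutrophils and Ly6C-high monocytes. With 1 library for each diet there was no replicate, so no p-value was computed and each contrast of the diets sets 1 pool of mice against another. All intervals are 95% intervals of counting error only, exact Poisson for levels, exact conditional binomial for ratios and exact Clopper-Pearson for shares.

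Cells with 200 to 3500 genes and at most 10% of UMIs from mitochondrial genes were kept, which left 2364 of 4459 CD barcodes and 2021 of 3163 HFD barcodes. The kept CD cells held 12284010 UMIs at a median of 4490.5 per cell, and the HFD cells 8086475 UMIs at a median of 2792. Cells with under 1000 genes made up 14.4% of the CD and 40.8% of the HFD cells. At least 2 of 8 macrophage markers were seen in 2351 CD and 1966 HFD cells. Nearly all thus carried macrophage markers, which alone do not set them apart from monocytes or dendritic cells. The 4 B cell markers summed to 5.05 and 5.81 counts per 1000000 UMIs (CPM) in the CD and HFD library, the 5 T or NK markers to 2.12 and 0.866 CPM, and the 3 stromal markers to 64.2 and 3.83 CPM. The 3 resident markers summed to 1489 and 399 CPM and the 4 monocyte markers to 3720.2 and 6507 CPM. The 4 dendritic cell markers summed to 144 and 85.7 CPM, with at least 2 of them seen in 41 CD and 24 HFD cells. Neutrophil markers, 4 genes, summed to 7.25 and 1.36 CPM, and the 3 eosinophil markers to 2.36 and 1.61 CPM. Markers of mast cells were at 0, and so were *Ms4a1*, *Cd3e*, *Ncr1*, *Ly6g*, *Epx* and *Prg2*. Cells that should lack these ligands were thus too few to set a level for free RNA, and no doublet caller was run. The part of the stromal RNA in the ligands' levels was not tested. The libraries shared 14 cell barcodes, of which 7 passed the filter in each.

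Population names give the marker that had at least 1 UMI. The CD and HFD libraries held 368 and 72 Timd4+ cells, 1172 and 415 Lyve1+ cells, 872 and 581 Folr2+Lyve1- cells, 1326 and 1131 Ccr2+ cells, 42 and 73 Plac8+ cells and 638 and 168 Trem2+ cells. *Timd4*, *Lyve1* and *Folr2* mark resident macrophages, *Ccr2*, *Lyz1* and *Plac8* mark cells close to monocytes, and *Trem2* with *Cd9* marks lipid-associated macrophages. Both *Trem2* and *Cd9* were seen in only 48 CD and 32 HFD cells. Most Trem2+ cells were therefore not shown to be lipid-associated macrophages. Cells with at least 10 UMIs of *Lyz1*, here Lyz1-high, numbered 555 and 672. The populations overlapped. Of the Timd4+ cells 77.7% on CD and 38.9% on HFD were also Lyve1+, and of the Trem2+ cells 60.5% and 19.0%. Of the Lyz1-high cells 95.7% and 89.7% were also Ccr2+. Timd4+ and Trem2+ cells thus differed in make-up between the libraries, and the part of this in their ratios of HFD over CD was not tested. A marker is seen more often in deeper cells, and the Lyz1-high cells had medians of 8205 and 6609 UMIs, while the Lyve1+ cells had 4052.5 and 2299.

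In GRCm38, 8 of the 10 genes lie within 1629 kb of chromosome 11 in 2 groups. *Ccl2* (ENSMUSG00000035385, from 82035571 to 82037453), *Ccl7* (ENSMUSG00000035373, 82045712 to 82047525), *Ccl12* (ENSMUSG00000035352, 82101845 to 82103400) and *Ccl8* (ENSMUSG00000009185, 82115185 to 82116799) are on the plus strand. *Ccl9* (ENSMUSG00000019122, 83572919 to 83578636), *Ccl6* (ENSMUSG00000018927, 83587882 to 83593087) and *Ccl3* (ENSMUSG00000000982, 83647844 to 83649355) are on the minus strand, and *Ccl4* (ENSMUSG00000018930, 83662584 to 83664683) is on the plus strand. *Ccl24* (ENSMUSG00000004814) is on chromosome 5 from 135569937 to 135573049 and *Ccl17* (ENSMUSG00000031780) on chromosome 8 from 94810453 to 94812036. *Ccl6* and *Ccl9* have 4 exons in their longest coding transcript and the other 8 genes have 3. Coding sequences were most alike between *Ccl3* and *Ccl4* (68.4% identity), *Ccl7* and *Ccl8* (65.0%), *Ccl12* and *Ccl8* (64.8%), and *Ccl6* and *Ccl9* (64.6%). The longest exact run shared by the transcripts of any pair was 25 bases, between *Ccl6* and *Ccl9*, followed by 23 bases between *Ccl2* and *Ccl7*.

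The 250 bases before the annotated start are shown for the neighbouring genes *Ccl8* and *Ccl12*, whose ratios between diets were far apart, and for *Ccl6* and *Ccl9*, whose levels went together across populations and diets. They are RefSeq sequences of GRCm38.p6, chr11:82114935-82115184 for *Ccl8* and chr11:82101595-82101844 for *Ccl12* on the plus strand, and chr11:83593088-83593337 for *Ccl6* and chr11:83578637-83578886 for *Ccl9* on the minus strand, each written 5′ to 3′ on the gene's strand. Capitals mark matches to GGANNTTCC (NF-kB) in *Ccl12* and TGANTCA (AP-1) in *Ccl9*.
Ccl8: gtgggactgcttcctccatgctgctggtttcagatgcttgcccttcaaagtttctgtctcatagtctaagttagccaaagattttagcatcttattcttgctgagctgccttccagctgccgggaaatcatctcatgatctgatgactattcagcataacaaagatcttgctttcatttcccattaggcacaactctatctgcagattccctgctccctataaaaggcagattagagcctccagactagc
Ccl12: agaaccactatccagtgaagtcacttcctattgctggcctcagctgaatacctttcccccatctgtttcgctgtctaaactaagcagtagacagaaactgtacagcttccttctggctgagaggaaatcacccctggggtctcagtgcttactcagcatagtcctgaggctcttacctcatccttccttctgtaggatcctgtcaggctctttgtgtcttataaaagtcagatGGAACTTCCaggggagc
Ccl6: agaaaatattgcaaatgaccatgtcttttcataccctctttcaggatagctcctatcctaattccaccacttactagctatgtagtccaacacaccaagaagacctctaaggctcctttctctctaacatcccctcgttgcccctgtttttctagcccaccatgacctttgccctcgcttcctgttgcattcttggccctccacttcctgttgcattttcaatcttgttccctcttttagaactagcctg
Ccl9: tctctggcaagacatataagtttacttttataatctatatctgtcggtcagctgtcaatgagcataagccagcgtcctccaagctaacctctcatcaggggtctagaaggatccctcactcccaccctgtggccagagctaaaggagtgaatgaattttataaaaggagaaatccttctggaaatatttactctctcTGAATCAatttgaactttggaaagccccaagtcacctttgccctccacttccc
On either strand, GGANNTTCC was found in 3.59% of the 32851 promoters of the table, TGANTCA in 6.75%, TTCNNNNGAA (STAT) in 5.85% and TTGCNNAA (C/EBP) in 9.56%. Promoters of 6 of the 10 genes were in the table. *Ccl12* held the NF-kB match 17 to 9 bases before the start, *Ccl9* the AP-1 match 53 to 47 bases before it, and *Ccl17* a STAT match. The windows of *Ccl8*, *Ccl6* and *Ccl3* held none of the 4 motifs, and no C/EBP match was found in the 6 windows. The windows of *Ccl8* and *Ccl12* were 55.6% identical in an alignment and those of *Ccl6* and *Ccl9* 47.2%.

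Together the 10 ligands took 1.05% of all UMIs of the CD library and 1.17% of those of the HFD library. Levels are given as CPM over all cells named, and since each UMI tags a 3' end, they were not divided by transcript length. *Ccl6* and *Ccl9* were the most abundant in both libraries, followed by *Ccl2*, *Ccl7* and *Ccl24*. *Ccl6* alone took 42.9% of the ligands' UMIs on CD and 54.4% on HFD, and ranked 21 and 15 among all genes with a UMI. *Ccl8* ranked 487 of 15194 genes on CD and 4090 of 14290 on HFD.

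**Figure D1:**
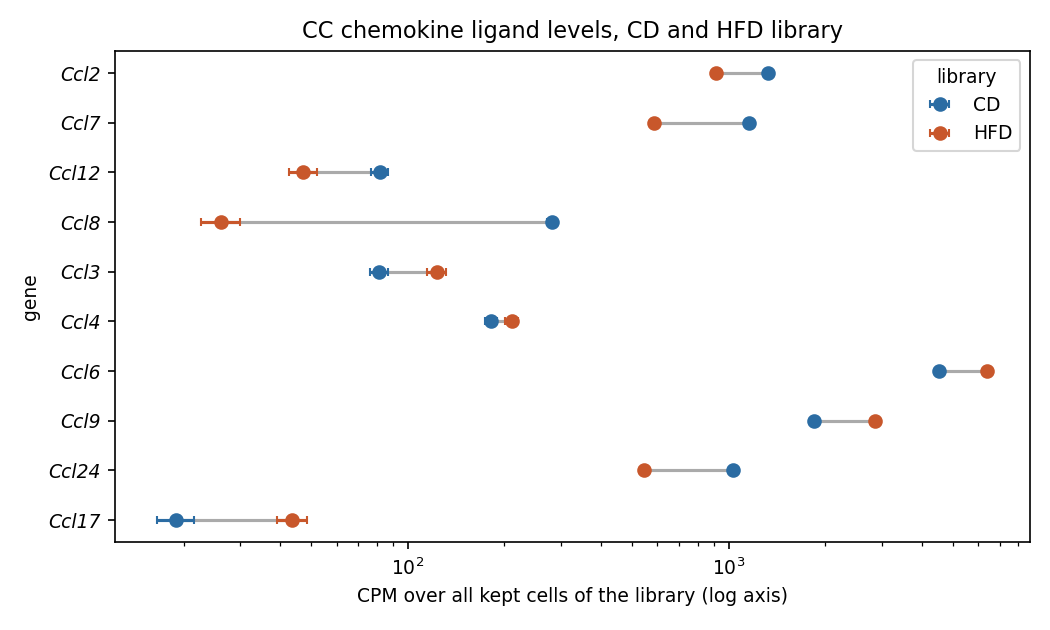
Level of each CC chemokine ligand over all kept cells (CPM, log axis) in the CD library (blue) and the HFD library (orange), 1 library each, with 95% Poisson intervals where wider than the point. *Ccl8* shows the widest gap, 281 CPM against 26.1 CPM, and the points of *Ccl6*, *Ccl9*, *Ccl3*, *Ccl4* and *Ccl17* lie further right in the HFD library.

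Over all kept cells, 3 of the 10 genes were at least 1.5-fold higher in the HFD library (*Ccl3*, *Ccl9* and *Ccl17*) and 4 at least 1.5-fold lower (*Ccl7*, *Ccl12*, *Ccl8* and *Ccl24*). Among the 8708 genes with at least 100 UMIs, 3.80% were that much higher and 7.11% that much lower. The median log2 ratio of HFD over CD was -0.16 for the 10 ligands and -0.01 for all 8708 genes. *Ccl2* and *Ccl6* fell just short of 1.5-fold, at 1.46-fold lower and 1.42-fold higher, and *Ccl3* was just past it at 1.51-fold. *Ccl17* counted by a few cells. Without each library's 5 richest cells it was at 3.19 CPM on CD and 3.86 CPM on HFD, which is not past 1.5-fold. In the barcodes over the mitochondrial limit, 1120 of the HFD and 2043 of the CD library, only *Ccl8* was at least 1.5-fold lower, so the count there was 1 in place of 4. *Ccl24* fell just short of 1.5-fold there, at a log2 ratio of -0.57 (-0.72 to -0.42).

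*Ccl2*, the main ligand of CCR2, was at 1331 CPM (1310.4 to 1351) on CD and 913 CPM (892 to 934) on HFD, a log2 ratio of -0.54 (-0.58 to -0.50). On CD it was at 1654 CPM in Lyve1+, 1571 in Timd4+, 1534 in Trem2+, 1219.7 in Folr2+Lyve1-, 1119 in Ccr2+, 952 in Plac8+ and 834 in Lyz1-high cells. In the HFD library the order was Lyve1+ at 1439 CPM, Trem2+ at 1209, Folr2+Lyve1- at 1153, Timd4+ at 966, Ccr2+ at 831, Lyz1-high at 669 and Plac8+ at 630.0. Lyve1+ cells were thus highest and Lyz1-high and Plac8+ cells lowest in both libraries. Intervals overlapped between Timd4+ cells and both their neighbours in the CD order, between Trem2+ and Folr2+Lyve1- cells in the HFD order, and between Plac8+ and Lyz1-high cells in both. *Ccl2* was lower in the HFD library in all 7 populations, most in Timd4+ cells (log2 ratio -0.70, -0.89 to -0.52) and least in Folr2+Lyve1- cells (-0.08, -0.15 to -0.01). In barcodes over the mitochondrial limit its level was 1357 CPM in the CD and 1353 CPM in the HFD library.

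*Ccl7*, which also binds CCR2, was at 1155 CPM (1136 to 1174) on CD and 584 CPM (567 to 601) on HFD, a log2 ratio of -0.98 (-1.03 to -0.94). Of all genes tested, 2.56% had a lower ratio. Its CD levels were 1641 CPM in Timd4+, 1616 in Lyve1+, 1445 in Trem2+, 955 in Folr2+Lyve1-, 909 in Ccr2+, 685 in Plac8+ and 573 in Lyz1-high cells. The HFD levels were 1039.8 CPM in Lyve1+, 969.9 in Timd4+, 793 in Trem2+, 732 in Folr2+Lyve1-, 458 in Ccr2+, 314 in Lyz1-high and 266 in Plac8+ cells. Timd4+ and Lyve1+ cells had overlapping intervals at the top and Lyz1-high and Plac8+ cells at the bottom of both orders, as had Folr2+Lyve1- and Ccr2+ cells in the CD and Trem2+ and Folr2+Lyve1- cells in the HFD order. The ratio of HFD over CD was below 0 in all 7 populations and past 1.5-fold in 6 of them, from -0.64 (-0.72 to -0.56) in Lyve1+ to -1.37 (-1.72 to -1.01) in Plac8+ cells. It was smallest, -0.38 (-0.47 to -0.30), in Folr2+Lyve1- cells. In barcodes over the mitochondrial limit it was -0.27 (-0.38 to -0.16).

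*Ccl12*, the third CCR2 ligand, was scarce, at 81.7 CPM (76.7 to 86.9) on CD and 47.2 CPM (42.6 to 52.2) on HFD, a log2 ratio of -0.79 (-0.96 to -0.62). The ratio was -0.13 by the mean of each cell's CPM and -0.28 with cells thinned to 800 UMIs. Its CD levels ran from 128 CPM in Timd4+, 116 in Trem2+, 97.8 in Lyve1+ and 83.3 in Folr2+Lyve1- cells to 54.9 in Plac8+, 54.1 in Ccr2+ and 19.7 in Lyz1-high cells. Its HFD levels were 103 CPM in Timd4+, 92.2 in Lyve1+, 90.7 in Trem2+, 80.1 in Folr2+Lyve1-, 34.0 in Ccr2+, 22.8 in Plac8+ and 7.40 in Lyz1-high cells. The Lyz1-high cells were lowest in both libraries, and neighbours among the 4 highest populations overlapped. In 3 of these 4 the interval of the ratio between diets reached across 0. The log2 ratio was -0.08 (-0.38 to 0.20) in Lyve1+ cells, -0.06 (-0.32 to 0.20) in Folr2+Lyve1- cells, -0.31 (-0.93 to 0.25) in Timd4+ cells, and -0.35 (-0.71 to -0.01) in Trem2+ cells, against -1.42 (-2.03 to -0.84) in Lyz1-high cells, the last from 94 and 34 UMIs. When each cell was counted in 1 population only, the ratio in Lyz1-high cells was 0.69.

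*Ccl8* had the largest difference of the 10 genes. It was at 281 CPM (271 to 290.1) on CD and 26.1 CPM (22.7 to 29.9) on HFD, from 3447 and 211 UMIs, a log2 ratio of -3.43 (-3.63 to -3.23) or 10.8-fold. Only 2 of the 8708 genes tested had a lower ratio. CD levels were 473 CPM (441 to 507) in Timd4+, 413 in Lyve1+, 336 in Trem2+, 236 in Folr2+Lyve1-, 212 in Plac8+, 116 in Ccr2+ and 58.4 (51.7 to 65.7) in Lyz1-high cells. Apart from Folr2+Lyve1- and Plac8+ cells, neighbours in this order had separate intervals. HFD levels were 96.3 CPM in Timd4+, 85.7 in Lyve1+, 27.0 in Trem2+, 25.6 in Folr2+Lyve1-, 10.5 in Ccr2+, 10.1 in Plac8+ and 6.75 in Lyz1-high cells, with separate intervals between Lyve1+ and Trem2+ and between Folr2+Lyve1- and Ccr2+ cells but not between the other neighbours. The HFD level in Lyve1+ cells, 85.7 CPM (70.9 to 103), was thus below the CD level of every population but the Lyz1-high cells. The ratio was below 0 in all 7 populations, from -2.27 (-2.55 to -2.00) in Lyve1+ and -2.30 (-2.91 to -1.75) in Timd4+ cells to -3.64 (-4.27 to -3.07) in Trem2+ cells, and -4.39 (-6.31 to -2.96) in Plac8+ cells from 58 and 4 UMIs. No HFD cell held more than 8 UMIs of *Ccl8*, while 83 CD cells held 10 or more and the richest held 181. In barcodes over the mitochondrial limit the levels were 333 and 77.1 CPM, a log2 ratio of -2.11 (-2.47 to -1.76).

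*Ccl3*, a ligand of CCR1, was at 81.4 CPM (76.4 to 86.6) on CD and 123 CPM (115 to 131) on HFD, a log2 ratio of 0.59 (0.46 to 0.72). Its CD levels were 115 CPM in Trem2+, 98.9 in Plac8+, 87.4 in Timd4+, 85.7 in Folr2+Lyve1-, 75.6 in Lyve1+, 62.7 in Ccr2+ and 41.2 in Lyz1-high cells. Its HFD levels were 207 CPM in Timd4+, 157 in Trem2+, 152 in Lyve1+, 139 in Folr2+Lyve1- and in Plac8+, 103 in Ccr2+ and 81.8 in Lyz1-high cells. Lyz1-high cells were lowest in both libraries, with an interval apart from the next population, while 4 of the 6 pairs of neighbours overlapped in the CD and 5 in the HFD order. The ratio was above 0 in all 7 populations, from 0.45 (0.16 to 0.72) in Trem2+ to 1.24 (0.78 to 1.69) in Timd4+ cells, and only in Plac8+ cells, with 27 and 55 UMIs, did its interval reach below 0. It reached 1.56 (1.20 to 1.92) in barcodes over the mitochondrial limit, where *Ccl3* was at 53.4 and 157 CPM.

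*Ccl4*, the close relative of *Ccl3*, was at 182 CPM (174 to 189) on CD and 211 CPM (201 to 221) on HFD, a log2 ratio of 0.21 (0.12 to 0.31). It was highest in Plac8+ cells of both libraries, at 502 CPM (421 to 593) and 337 CPM (282 to 399). These levels rest on few cells, with 137 UMIs in 14 CD cells and 133 UMIs in 22 HFD cells. The other CD levels were 199 CPM in Folr2+Lyve1-, 194 in Trem2+, 167 in Ccr2+, 166 in Lyve1+, 146 in Timd4+ and 132 in Lyz1-high cells. The other HFD levels were 299.5 CPM in Timd4+, 252 in Lyve1+, 207 in Trem2+, 197 in Ccr2+, 166 in Folr2+Lyve1- and 162 in Lyz1-high cells, with the top interval reaching that of Timd4+ cells and 5 of 6 pairs of neighbours overlapping. Its ratio pointed both ways. It was above 0 in Timd4+ (1.04, 0.66 to 1.40) and Lyve1+ cells (0.60, 0.42 to 0.78) and below 0 in Folr2+Lyve1- (-0.26, -0.44 to -0.09) and Plac8+ cells (-0.58, -0.93 to -0.22). The 84 HFD UMIs of the Timd4+ cells came from 13 cells. Cells with a UMI of the dendritic cell gene *Flt3*, 13 in the CD and 15 in the HFD library, were at 512 and 1488 CPM. Of these cells only 6 and 5 held a UMI of *Ccl4*.

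*Ccl6*, which binds CCR1, was at 4511 CPM (4473 to 4548) on CD and 6389 CPM (6334 to 6444) on HFD, a log2 ratio of 0.50 (0.48 to 0.52). The levels lay close together across populations, 1.60-fold apart on CD and 1.32-fold on HFD. The CD levels were 5571 CPM in Lyz1-high, 4938 in Ccr2+, 4465 in Folr2+Lyve1-, 4439.9 in Lyve1+, 4340.3 in Trem2+, 4237 in Timd4+ and 3486 in Plac8+ cells. The HFD levels were 7128 CPM in Lyve1+, 6856 in Lyz1-high, 6524 in Ccr2+, 6406 in Folr2+Lyve1-, 6253 in Trem2+, 5733 in Plac8+ and 5395 in Timd4+ cells. Lyve1+ cells stood in the fourth place on CD, with intervals that overlapped those of Folr2+Lyve1- and Trem2+ cells, and were highest on HFD, apart from Lyz1-high cells. The ratio was above 0 in all 7 populations, from 0.30 (0.28 to 0.32) in Lyz1-high to 0.68 (0.65 to 0.72) in Lyve1+ and 0.72 (0.61 to 0.83) in Plac8+ cells.

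*Ccl9*, the neighbour of *Ccl6* and also a CCR1 ligand, was at 1847 CPM (1823 to 1872) on CD and 2859.6 CPM (2823 to 2897) on HFD, a log2 ratio of 0.63 (0.60 to 0.66). On CD it was at 2186 CPM in Lyz1-high, 1963 in Ccr2+, 1843 in Folr2+Lyve1-, 1777 in Trem2+, 1772 in Lyve1+, 1671 in Timd4+ and 1655 in Plac8+ cells. In the HFD library Trem2+ cells were highest at 3678 CPM (3556 to 3804), followed by Lyve1+ at 3046, Folr2+Lyve1- at 2987, Lyz1-high at 2893, Ccr2+ at 2762, Plac8+ at 2596 and Timd4+ cells at 2343. The Lyz1-high cells on CD and the Trem2+ cells on HFD stood apart, and 3 and 4 of the 6 pairs of neighbours overlapped. The ratio was above 0 in all 7 populations. It was largest in Trem2+ cells (1.05, 0.99 to 1.11) and smallest in Lyz1-high cells (0.40, 0.37 to 0.44).

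*Ccl24*, the eosinophil chemokine eotaxin-2, was at 1033 CPM (1015 to 1052) on CD and 546 CPM (530.0 to 562) on HFD, a log2 ratio of -0.92 (-0.97 to -0.87). CD levels were 1404 CPM in Timd4+, 1288 in Lyve1+, 1051 in Trem2+, 1015 in Lyz1-high, 897 in Ccr2+, 801 in Folr2+Lyve1- and 432 in Plac8+ cells. HFD levels were 698 CPM in Lyve1+, 620.0 in Folr2+Lyve1-, 610.3 in Trem2+, 581 in Timd4+, 567 in Lyz1-high, 496 in Ccr2+ and 230.2 in Plac8+ cells. Plac8+ cells were lowest in both libraries, apart from all others, and Timd4+ and Lyve1+ cells stood apart at the top of the CD order only. Unlike the CCR2 ligands, *Ccl24* was by summed CPM not lower in Lyz1-high cells than in the library's other cells, with ratios of -0.04 (-0.09 to 0.01) on CD and 0.13 (0.04 to 0.22) on HFD. With cells thinned to 800 UMIs it was in 40.5% (36.4 to 44.8%) of CD Lyz1-high cells and 48.7% (46.7 to 50.8%) of all CD cells. The HFD shares were 27.7% (24.3 to 31.2%) and 29.4% (27.3 to 31.5%). The ratio of HFD over CD was below 0 in all 7 populations, from -0.37 (-0.46 to -0.28) in Folr2+Lyve1- to -1.27 (-1.51 to -1.04) in Timd4+ cells. Of the 3 eosinophil markers, *Epx* and *Prg2* had no UMI in either library, and *Siglecf* had 29 UMIs in the CD and 13 in the HFD library.

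*Ccl17*, a T cell attractant made by dendritic cells and some macrophages, was carried by a handful of cells. Its level was 18.9 CPM (16.5 to 21.5) on CD and 43.5 CPM (39.1 to 48.3) on HFD, a log2 ratio of 1.20 (0.96 to 1.45). The 5 richest cells held 83.2% of its 232 CD UMIs and 91.2% of its 352 HFD UMIs, with 80 UMIs in the top CD cell and 167 and 102 in the top HFD cells. Without these 5 cells per library the levels were 3.19 and 3.86 CPM. The levels by population therefore follow single cells. The CD levels were 22.3 CPM in Ccr2+, 19.6 in Timd4+, 17.7 in Folr2+Lyve1-, 1.93 in Trem2+, 1.49 in Lyve1+ and 1.47 in Lyz1-high cells, with no UMI in Plac8+ cells. The HFD levels were 474 CPM in Timd4+, 286 in Plac8+, 74.8 in Lyve1+, 29.1 in Ccr2+, 7.62 in Lyz1-high, 3.66 in Folr2+Lyve1- and 2.16 in Trem2+ cells. The second richest HFD cell, with 102 UMIs of *Ccl17*, 35 of *Plac8*, 4 of *Lyve1* and 1 of *Timd4*, counted among the Timd4+, Lyve1+ and Plac8+ cells. Without each library's 5 richest cells the levels were 0.596 and 3.84 CPM in Timd4+ cells, 1.49 and 0.733 CPM in Lyve1+ cells, and 13.5 CPM in HFD Plac8+ cells. Against a floor of 3 UMIs for the CD Plac8+ cells, *Ccl17* was at least 26.0-fold higher in HFD Plac8+ cells. This bound rests on 2 of the 5 richest HFD cells, which held all but 5 of the 113 UMIs there. The 10 richest cells of both libraries each held 102 to 811 UMIs of *Cd74*, the invariant chain of antigen presentation, and at most 23 of the macrophage gene *C1qa*, and none had a UMI of *Flt3*. Of the dendritic cell genes, *Ccr7* had 16, 8 and 1 UMIs in 3 of these cells, *Zbtb46* was in 2, and *Ccl22* was in 6 with up to 41 UMIs. In Flt3+ cells, *Ccl17* had 4 UMIs on CD and 2 on HFD.

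**Figure D2:**
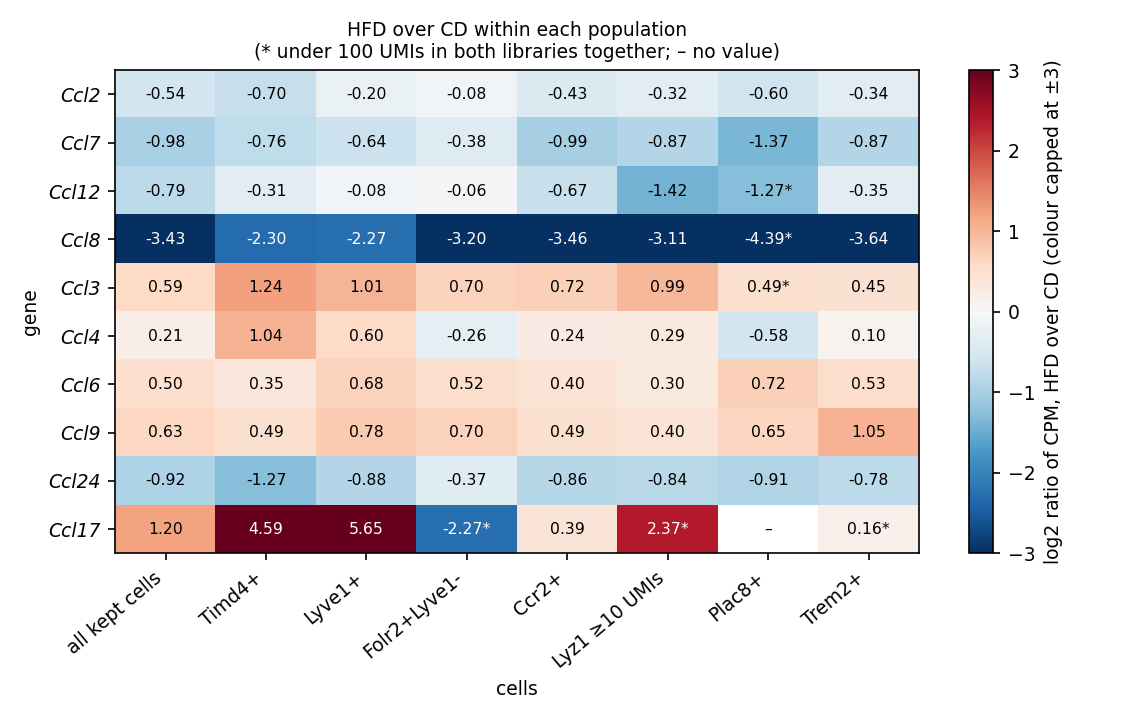
Log2 ratio of CPM, HFD over CD library, for each ligand (y axis) in all kept cells and in each marker-defined population (x axis), blue for lower and red for higher in the HFD library, with an asterisk where both libraries together held under 100 UMIs. *Ccl8*, *Ccl7*, *Ccl2* and *Ccl24* are blue in all 7 populations and *Ccl6*, *Ccl9* and *Ccl3* red in all 7, while *Ccl4* and *Ccl17* hold both colours.

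Counted by population, genes with at least 100 UMIs in both libraries together were read against all genes that met this minimum. In Lyve1+ cells 5 of 10 ligands were at least 1.5-fold higher in the HFD library (*Ccl3*, *Ccl4*, *Ccl6*, *Ccl9* and *Ccl17*; background 4.79%) and 3 lower (*Ccl7*, *Ccl8* and *Ccl24*; 6.80%). In Timd4+ cells 3 of 10 were higher (*Ccl3*, *Ccl4* and *Ccl17*; 5.0%) and 4 lower (*Ccl2*, *Ccl7*, *Ccl8* and *Ccl24*; 14%). *Ccl17* counted in Lyve1+ cells with 8 CD and 103 HFD UMIs, of which 102 were in 1 cell, and in Timd4+ cells with 33 and 133 UMIs, of which 1 in each library lay outside the 5 richest cells. Leaving out *Ccl17*, 4 ligands were higher in Lyve1+ and 2 in Timd4+ cells. Resident cells thus held ligands past 1.5-fold in both directions, as did the other populations. In Folr2+Lyve1- cells 2 of 9 were higher (*Ccl3* and *Ccl9*, background 4.89%) and 1 lower (*Ccl8*, 4.48%). In Trem2+ cells 1 of 9 was higher (*Ccl9*, 7.83%) and 3 lower (*Ccl7*, *Ccl8* and *Ccl24*, 14.6%).

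In Ccr2+ cells *Ccl3* alone of 10 ligands was at least 1.5-fold higher (background 3.08%) and *Ccl7*, *Ccl12*, *Ccl8* and *Ccl24* were lower (6.71%). The same genes were past 1.5-fold among the 9 tested in Lyz1-high cells, where 2.99% of all genes were higher and 4.67% lower. In Plac8+ cells, with only 7 ligands tested, *Ccl6*, *Ccl9* and *Ccl17* were higher (5.40%) and *Ccl2*, *Ccl7* and *Ccl24* lower (5.75%). *Ccl17* had 0 CD and 113 HFD UMIs there, and 5 of the latter without the 5 richest cells, and leaving it out 2 ligands were higher. *Ccl8* was below 0 there too but had 62 UMIs. Counts moved by more than 1.5 times under several other settings, in populations with many cells as well as in those with few. These settings are given in the closing part. In Lyve1+ cells the count of 5 was 3 without each gene's 5 richest cells, where *Ccl4* was at 0.31 and *Ccl17* at -1.02.

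**Figure D3:**
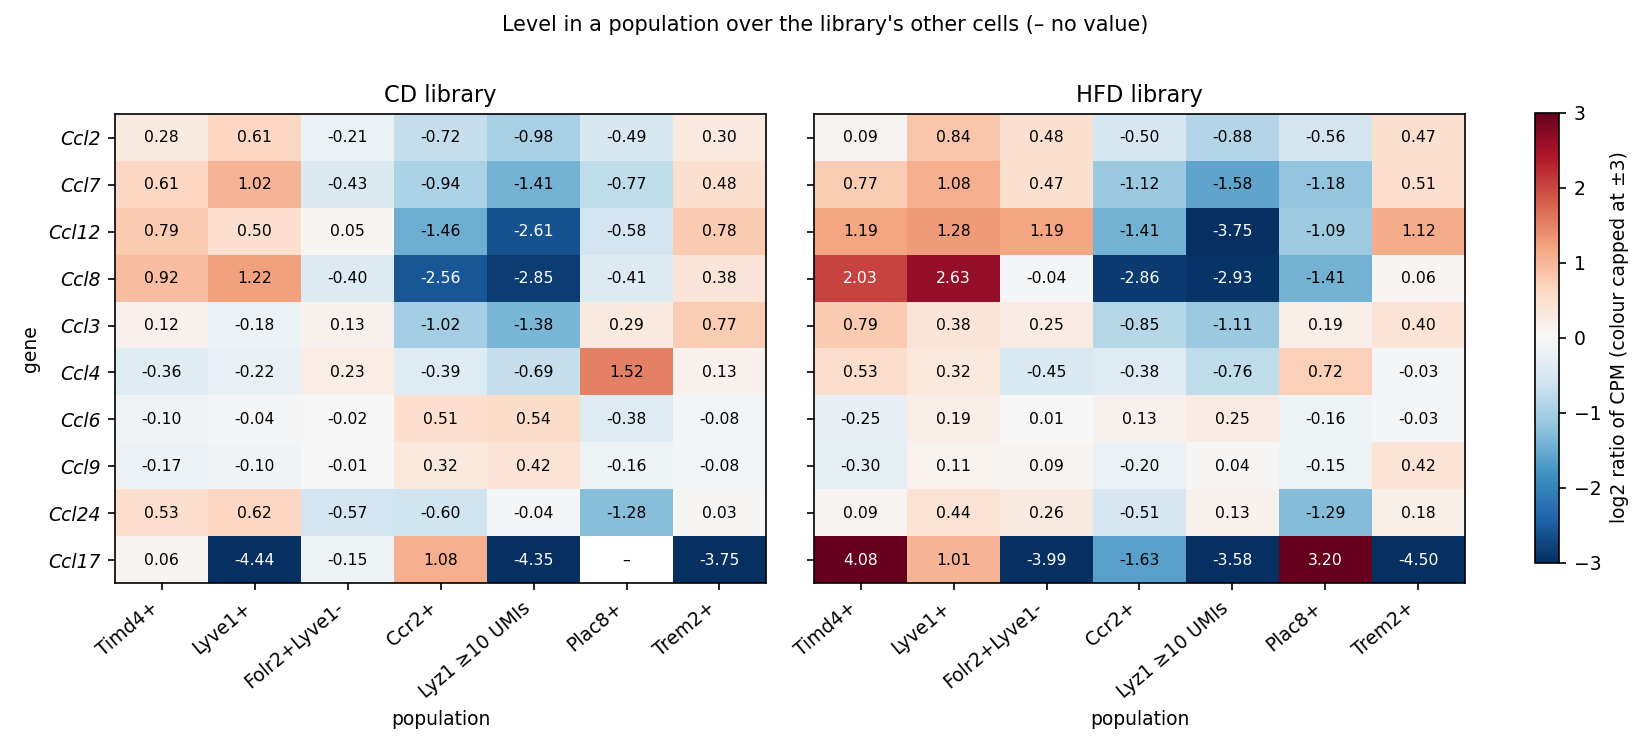
Log2 ratio of CPM in each population (x axis) over all other kept cells of the same library, for each ligand (y axis), CD library on the left and HFD library on the right. In both libraries *Ccl2*, *Ccl7*, *Ccl12* and *Ccl8* are red in Lyve1+ and blue in Lyz1-high cells, and *Ccl6* and *Ccl9* stay within 0.54 of 0.

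Against the other cells of the same library, *Ccl2*, *Ccl7* and *Ccl8* were at least 1.5-fold higher in Lyve1+ cells of both libraries. In the CD library these and *Ccl24* made 4 of 10 ligands (12.7% of all genes tested were that much higher) and *Ccl17* was lower (6.56%). In the HFD library 5 were higher, *Ccl2*, *Ccl7*, *Ccl12*, *Ccl8* and *Ccl17* (10.2%), and 0 lower (4.98%). *Ccl17* counted there by 1 cell with 102 of its 103 UMIs, and without the 5 richest cells it was at 0.733 CPM in Lyve1+ cells and 3.86 CPM over all HFD cells. For *Ccl8* the ratio in Lyve1+ cells was 1.22 (1.11 to 1.32) on CD and 2.63 (2.22 to 3.04) on HFD, and for *Ccl7* it was 1.02 (0.97 to 1.07) and 1.08 (0.99 to 1.17). When each cell was counted in 1 population, with Plac8+, Trem2+ and Timd4+ cells taken first, the CD count in the remaining Lyve1+ cells was 0 higher and 2 lower.

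In Lyz1-high cells 7 of 10 ligands were at least 1.5-fold lower than in the other cells of both libraries, where 20.9% of all genes tested were that much lower in the CD and 20.1% in the HFD library. They were *Ccl2*, *Ccl7*, *Ccl12*, *Ccl8*, *Ccl3*, *Ccl4* and *Ccl17*. *Ccl17*, which rests on few cells, had ratios of -4.35 (-5.68 to -3.28) and -3.58 (-4.12 to -3.07). The gaps were widest among the others for *Ccl8*, -2.85 (-3.03 to -2.67) and -2.93 (-3.53 to -2.38), and *Ccl12*, -2.61 (-2.94 to -2.31) and -3.75 (-4.31 to -3.24). None was higher in either library, against 7.67% and 5.50% of all genes, although *Ccl6* and *Ccl9* lay above 0 in the CD library at 0.54 (0.51 to 0.56) and 0.42 (0.38 to 0.46). The median ratio was -1.18 and -1.0 over the ligands and -0.16 and -0.17 over all genes. Of the Ccr2+ cells, 40% on CD and 53.3% on HFD were also Lyz1-high, and there *Ccl8* was at -2.56 (-2.66 to -2.45) and -2.86 (-3.31 to -2.43) and *Ccl12* at -1.46 (-1.64 to -1.28) and -1.41 (-1.70 to -1.11).

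The mix of populations differed between the libraries, and in bulk sums fewer cells of a type and less RNA per cell cannot be told apart. Each cell was assigned to at most 1 population, with Plac8+, Trem2+, Timd4+, Lyve1+ and Folr2+Lyve1- cells taken before Lyz1-high cells. The 145 CD and 432 HFD Lyz1-high cells so left took 9.11% and 34.2% of UMIs, and Trem2+ cells 28.9% and 10.4%. All Lyz1-high cells held 4761059 of the 12284010 CD and 4595280 of the 8086475 HFD UMIs. Cells in no population numbered 35 and 262. Because the mix differed, the HFD level of each population was also weighted by its CD share of UMIs, a calculation added after seeing the data. Markers are missed more often in the shallower HFD cells, and the part of this in the shares was not tested. The log2 ratio of *Ccl12* moved from -0.79 to -0.11, that of *Ccl2* from -0.54 to -0.25, and that of *Ccl7* from -0.98 to -0.58. *Ccl8* was then at -2.75 and *Ccl24* at -0.69, *Ccl6* at 0.50, *Ccl9* at 0.73 and *Ccl3* at 0.78. *Ccl17* moved from 1.20 to 0.26, and *Ccl4* was at 0.19. So weighted, 2 ligands in place of 4, *Ccl8* and *Ccl24*, were at least 1.5-fold lower in the HFD library, and *Ccl7* lay at the threshold. *Ccl3* and *Ccl9* stayed at least 1.5-fold higher, and *Ccl17* did not.

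Shares of cells with a UMI depend on depth, and cells were therefore thinned to 800 UMIs, at the loss of 30 CD and 147 HFD cells. *Ccl8* was then seen in 15.5% (14.1 to 17.0%) of CD cells and 2.88% (2.17 to 3.74%) of HFD cells, and before thinning in 35.5% and 6.23%. *Ccl2* was seen in 50% and 35.5%, *Ccl7* in 37.0% and 25.1% and *Ccl24* in 48.7% and 29.4% of the thinned CD and HFD cells, and in 80.7% and 60.5%, 70.1% and 45.4%, and 84.0% and 53.2% before thinning. These genes were thus seen in fewer HFD cells at equal depth. *Ccl6* was in 88.8% and 95.8% and *Ccl9* in 68.9% and 82.9% of thinned cells. The unthinned shares, 98.5% and 98.3% for *Ccl6* and 95.4% and 94.6% for *Ccl9*, had overlapping intervals. *Ccl3* was in 4.88% (4.05 to 5.84%) and 8.27% (7.06 to 9.61%), against 13.7% and 18.8% unthinned. The shares of *Ccl4*, 6.47% and 7.26%, and *Ccl12*, 3.90% and 2.99%, had overlapping intervals, and unthinned they were 16.5% and 15.5%, and 11% and 6.68%.

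The share with *Ccl8* also differed between populations of 1 library at equal depth. In the CD library it was 25.1% (20.7 to 29.9%) of Timd4+, 20% of Lyve1+ and 3.78% (2.36 to 5.73%) of Lyz1-high cells, and in the HFD library 8.45%, 7.21% and 0.298% (0.0361 to 1.07%). The unthinned shares were 53.3%, 44.5% and 24.7%, and 13.9%, 14.5% and 3.72%. *Ccl17* was in 0.343% of thinned CD and 0.480% of HFD cells, and in 1.31% and 1.34% before thinning.

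**Figure D4:**
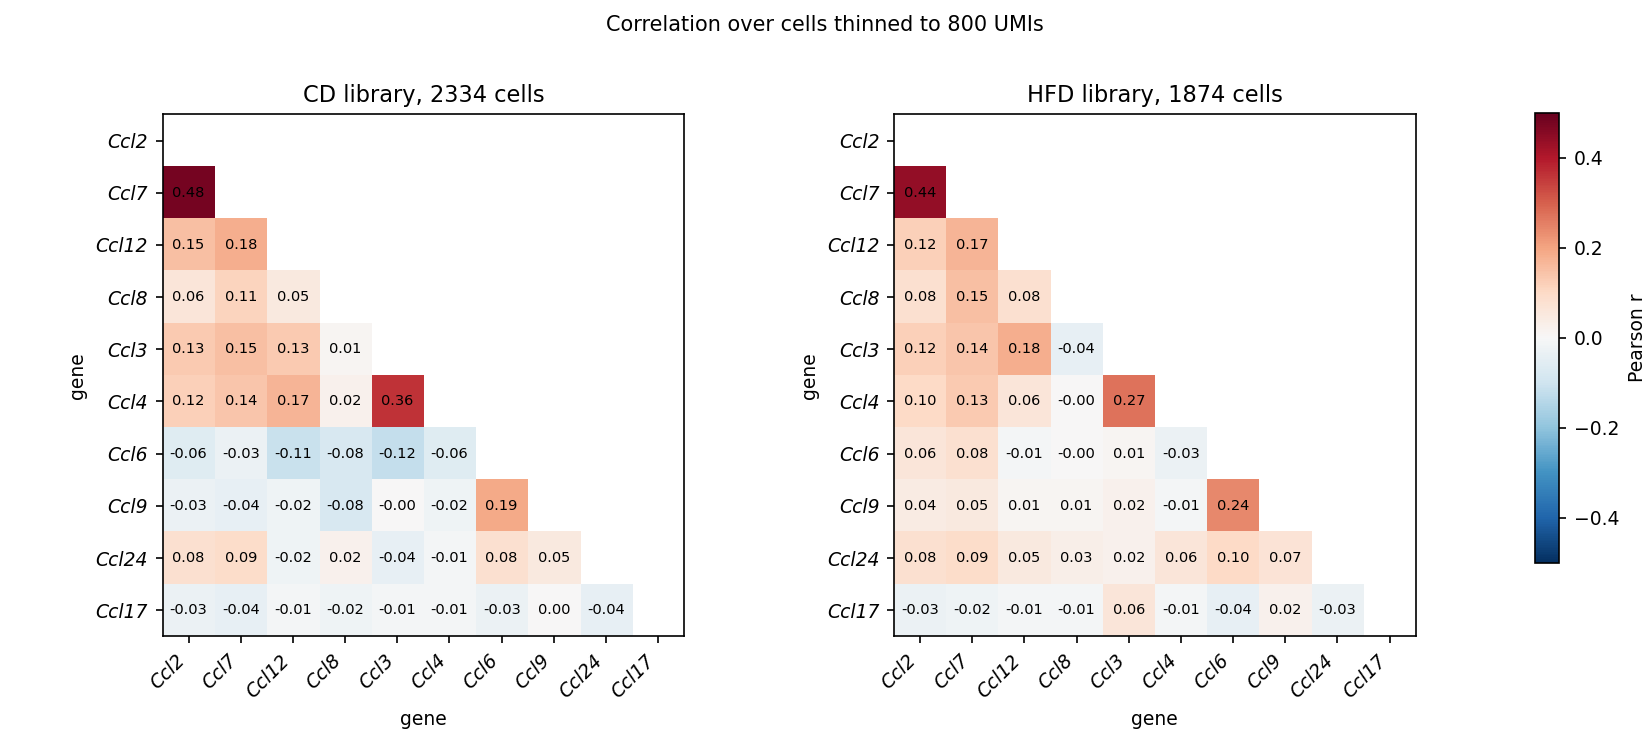
Pearson correlation over cells of the log2(UMIs + 1) of each pair of ligands, cells thinned to 800 UMIs, in the CD library (left) and the HFD library (right). *Ccl2* with *Ccl7* (0.48 and 0.44), *Ccl3* with *Ccl4* (0.36 and 0.27) and *Ccl6* with *Ccl9* (0.19 and 0.24) are the darkest squares in both.

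Some pairs of ligands were often seen in the same cells. Of the CD cells with *Ccl2*, 52.6% also had *Ccl7*, against 21.4% of those without, and in the HFD library the shares were 41.7% and 16%. *Ccl4* was seen in 34.2% of the 114 CD cells with *Ccl3* and 5.05% of the others, and in 21.9% and 5.93% in the HFD library. *Ccl9* was in 70.2% of CD cells with *Ccl6* and 58.2% of those without, and in 83.5% and 69.2% of HFD cells. *Ccl12* was in 6.08% of the 362 CD cells with its neighbour *Ccl8* and 3.50% of the others, and in 9.26% and 2.80% on HFD, which is 22 and 5 cells with both, and their correlation was 0.05 and 0.08. These correlations describe cells of 1 preparation, which share depth and free RNA, and are given without a test.

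**Figure D5:**
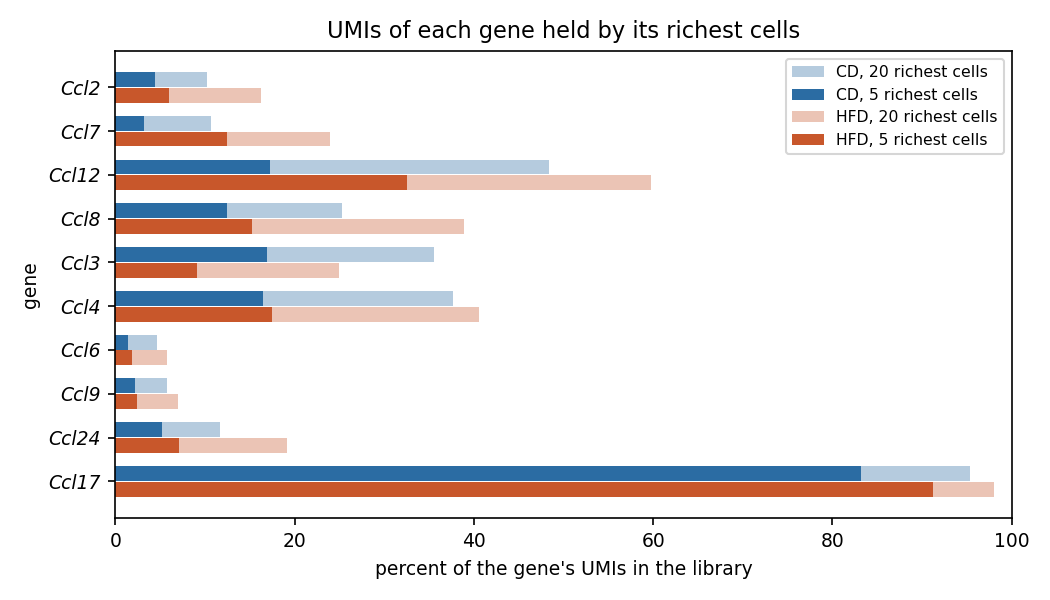
Share of each ligand's UMIs (x axis, percent) held by the 5 richest cells (dark) and the 20 richest cells (light) of the CD library (blue) and the HFD library (orange). *Ccl6* and *Ccl9* are spread most evenly, with 4.63% to 7.01% in 20 cells, and *Ccl17* least, with 95.3% and 98.0%.

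The ligands also differed in how evenly cells held them. The median kept cell held 15 UMIs of *Ccl6* in both libraries, 6 of *Ccl9* in the CD and 7 in the HFD library, 3 and 1 of *Ccl2*, 3 and 1 of *Ccl24*, and 0 of *Ccl12*, *Ccl8*, *Ccl3*, *Ccl4* and *Ccl17* in both. The richest 10% of cells held 33.1% and 35.0% of *Ccl6* and 57.9% and 73.7% of *Ccl7*, and for *Ccl4* it held 93.1% and 93.5%. The 20 richest cells held 48.4% of *Ccl12* in the CD and 59.7% in the HFD library. Without each gene's 5 richest cells per library, an alternative added after seeing the data, the log2 ratios over all cells were -3.47 for *Ccl8*, -1.13 for *Ccl7*, -1.08 for *Ccl12*, -0.95 for *Ccl24*, 0.73 for *Ccl3* and 0.27 for *Ccl17*.

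Over the 14 values of 7 populations in 2 libraries, which share cells, levels of *Ccl2* and *Ccl7* on the log2(CPM + 10) scale had a Pearson correlation of 0.96, *Ccl6* and *Ccl9* of 0.92, and *Ccl8* with *Ccl6* of -0.81 and with *Ccl9* of -0.83. Among 4314 genes with at least 500 UMIs, those most like each ligand were found by the same measure. They were *Psd3*, *Arrb2* and *Slc9a9* for *Ccl2* (0.956 to 0.968), *Grn*, *Tgfbr2* and *Pmp22* for *Ccl7* (0.973 to 0.982), *Adap2os*, *Slco2b1* and *Rab3il1* for *Ccl12* (0.958 to 0.966), and *mt-Nd1*, *Prdx4* and *Tgfbi* for *Ccl8* (0.954 to 0.974). *Msr1*, *H3f3b* and *Snap23* were most like *Ccl3* (0.894 to 0.92) and *Atf1*, *Hnrnpa3* and *Parp14* most like *Ccl4* (0.903 to 0.926). For *Ccl6* they were *Lilr4b*, *Prpf38b* and *2310033P09Rik* (0.929 to 0.942), and for *Ccl9* *Pla2g7*, *Lilr4b* and *Ctsd* (0.960 to 0.971). *Slc9a3r2*, *Kcnab2* and *Chmp3* were most like *Ccl24* (0.942 to 0.957), and *Ankrd44*, *Tmx3* and *Cggbp1* most like *Ccl17* (0.857 to 0.903). The values of *Ccl17* follow single cells, and 1 HFD cell with 102 of its UMIs entered the Timd4+, Lyve1+ and Plac8+ values. Since the 14 values hold both libraries, differences between the diets enter all these correlations.

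Receptors of these ligands were measured in the same ATMs. *Ccr2* was at 561 CPM in the CD and 609.8 CPM in the HFD library (log2 ratio 0.12, 0.07 to 0.17) and *Ccr1* at 103 and 98.8 CPM (-0.06, -0.19 to 0.07), neither past 1.5-fold. *Ccr3* had 4 UMIs in each library, and *Ccr4* and *Ccr8*, the receptors of Ccl17 and Ccl8, had none, which allows up to 0.244 CPM on CD and 0.371 CPM on HFD by a floor of 3 UMIs. *Ccrl2*, an atypical receptor that does not signal to migration, was at 94.9 and 215 CPM (1.18, 1.07 to 1.29). Of 12 other CC ligands, 2 had at least 100 UMIs. *Ccl5*, a T cell and monocyte attractant, was at 23.8 and 3.46 CPM, a log2 ratio of -2.78 (-3.39 to -2.22) from 292 and 28 UMIs, and *Ccl22*, which shares CCR4 with Ccl17, was at 6.51 and 9.27 CPM.

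Lists of NF-kB, early-response and interleukin-4 genes were read in the same way, against 3.80% of all genes higher and 7.11% lower. None of 8 NF-kB genes was past 1.5-fold in either direction, with a median log2 ratio of 0.06 and a summed level of 2299 and 2657 CPM in the CD and HFD library. Of 14 early-response and dissociation genes, the near-identical heat shock genes, whose reads may be split between them, *Hspa1a* (361 and 591 CPM, log2 ratio 0.71) and *Hspa1b* (45.8 and 128 CPM, 1.48) were higher and *Socs3*, a feedback inhibitor of cytokine signals, was lower (189.5 and 118 CPM, -0.68), and the list summed to 19493 and 19332 CPM. Cells are known to respond to digestion with these genes, whose part in the ligands' levels was not tested. In Lyz1-high cells, where *Ccl12*, *Ccl8*, *Ccl3* and *Ccl4* were lowest in both libraries, the list summed to 14331 and 15139 CPM, against 22319.6 and 23741 CPM in Lyve1+ cells. In Plac8+ cells, where *Ccl4* was highest in both libraries, it summed to 14023 and 15993 CPM. Of 6 interleukin-4 genes with at least 100 UMIs, the lectins *Mrc1* (838 and 529 CPM, log2 ratio -0.66), *Mgl2* (670.1 and 283 CPM, -1.24) and *Clec10a* (534 and 346 CPM, -0.63) were lower in the HFD library, and none was at least 1.5-fold higher.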

How the data were processed

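Droplet-based scRNA-seq was performed by the authors on sorted epididymal ATMs, 1 library of 3 pooled mice per diet. The authors deposited raw UMI counts for every gene in every barcode, for which Cell Ranger 3.0.2 was the tool per the submitters' processing notes, on mm10 with the Ensembl annotation named in the methods. These steps can affect values, since the HFD cells were shallower and free RNA was not removed. Barcodes were filtered on genes (200 to 3500) and mitochondrial UMIs (at most 10%), UMIs were summed per population and given as CPM, and ratios of at least 1.5-fold on at least 100 UMIs were counted. The count models that need replicates were not used. The 10 ligands and all other gene lists were chosen with earlier results of these data known. Named genes were the 10 ligands, the 3 genes most like each, receptors *Ccr1*, *Ccr2*, *Ccr3*, *Ccr4* and *Ccr8*, and genes of the other lists past 1.5-fold; *Ccl22*, cell type markers and the genes of the richest *Ccl17* cells were named in addition, and some listed genes are not reported here. Python 3.11.15, numpy 2.4.6, scipy 1.17.1 and pandas 2.3.3 were used. On counts simulated as Poisson draws for HFD over CD in all cells, 8708 genes with 200 changed, 95.0% of intervals held the true ratio. Such draws hold no clumping of UMIs by cell. They check the code for the intervals and cannot tell how often the intervals hold the true ratio in these data. Gene positions are from GENCODE M21. Alternatives changed the cell filters, scaling, depth, gene minimum and population rules.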

Additional observations from a re-analysis of the deposited data

Results flagged for a closer look

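*Ccl4* was looked at again because its log2 ratio of HFD over CD lay on opposite sides of 0 in different populations, 1.04 in Timd4+ cells and -0.58 in Plac8+ cells. The HFD UMIs of the Timd4+ cells came from 13 cells, and those of the Plac8+ cells from 14 CD and 22 HFD cells. With cells thinned to 800 UMIs, *Ccl4* was in 6.61% of CD and 7.04% of HFD Timd4+ cells. In Plac8+ cells the shares were 14.3% and 17.8%, and the intervals overlapped in both populations. With 1 library per diet the difference between these populations was not tested. Among the barcodes over the mitochondrial limit, which entered none of the population comparisons, some ligands were higher in those of the HFD library than in those of the CD library. There the log2 ratio of HFD over CD was 1.56 for *Ccl3*, 0.62 for *Ccl4*, 0.74 for *Ccl6* and 0.87 for *Ccl9*. For *Ccl17* it was 4.03, from 2 CD and 14 HFD UMIs.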

How the results depend on the processing

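Over 24 counts of ligands past 1.5-fold, 317 of 364 values under other settings stayed within 1.5 times the count given, and 47 did not. The cause was not tested. With at most 2500 genes per cell, the ligands higher in HFD numbered 0 in Ccr2+, Lyz1-high and Plac8+ cells, 1 in Folr2+Lyve1- cells and 3 in Lyve1+ cells, 1 was higher in Lyz1-high than in other CD cells, those lower in Lyve1+ than in other cells were 0 on CD and 1 on HFD, and the log2 ratio of *Ccl17* in Lyve1+ cells was -1.08. With at least 1000 genes, 1 was higher in Folr2+Lyve1- cells. With cells thinned to 800 UMIs, those higher in HFD were 0 in Ccr2+, Lyz1-high and Timd4+ cells. They were 3 in Lyve1+ and 2 in Trem2+ cells, and those lower were 2 in Lyz1-high and 0 in Plac8+ cells. In Lyve1+ against other cells 2 were higher and 0 lower on CD and 3 higher on HFD. In Lyz1-high against other CD cells 1 was higher. The gene minimum held for thinned UMIs too, so a 0 can mean too few UMIs. Thinned Lyz1-high cells had log2 ratios of 1.12 for *Ccl3* and 1.72 for *Ccl17*, yet neither was counted. *Ccl7*, *Ccl12*, *Ccl8* and *Ccl24* were all at -0.70 or below there, though only 2 were counted. In thinned Timd4+ cells *Ccl3* was in 4.41% of CD and 12.7% of HFD cells, with overlapping intervals. Without thinning, the shares of *Ccl6* and *Ccl9* differed by -0.20 and -0.80 percentage points, HFD minus CD. With each cell in 1 population, 2 were higher and 1 lower in Ccr2+ cells, 1 was lower in Lyz1-high cells, 0 were higher and 2 lower in Lyve1+ than in other CD cells and 1 lower on HFD, and the log2 ratios were 0.69 for *Ccl12* in Lyz1-high and -1.38 for *Ccl17* in Lyve1+ cells. With a gene minimum of 20 UMIs, and likewise with none, 2 were higher in Lyz1-high cells, 2 lower in Folr2+Lyve1- cells and 5 lower in Plac8+ cells. With a marker minimum of 2 UMIs and of 20 for *Lyz1*, 2 were higher in Lyz1-high, 0 in Timd4+ and 2 in Trem2+ cells, and 0 were lower in Plac8+ and 5 in Trem2+ cells. With the mean of each cell's CPM, 2 were higher in Lyve1+ and 1 in Lyz1-high than in other CD cells, and 2 were lower in HFD in Timd4+ cells. At a mitochondrial limit of 20%, 1 was higher in Lyz1-high than in other CD cells, and at 5%, 0 were lower in Plac8+ cells. Settings added after seeing the data gave 2 lower in all cells at the CD composition, 1 lower in barcodes over the mitochondrial limit, and, without each gene's 5 richest cells, 3 higher in Lyve1+, 0 higher in Plac8+ and 2 lower in Folr2+Lyve1- cells, with *Ccl17* at -1.02 in Lyve1+ cells. TMM and median-of-ratios scaling moved log2 ratios by -0.05 to 0.06. No paired analysis was possible because each diet had 1 library. For the same reason no replicate could be left out, and spread between mice is not measured. At this depth Plac8+ cells of both libraries together held 24 UMIs of *Ccl12*, 62 of *Ccl8* and 82 of *Ccl3*.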

Other observations

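Over cells thinned to 800 UMIs, *Ccl6* had its highest correlations outside the ligands with *Retnla*, a secreted product of interleukin-4-treated macrophages, at 0.34 on CD and 0.25 on HFD, among 8 genes compared, and with *Lyz1* at 0.26 and 0.19. *Ccl2* and *Ccl7* ran against *Lyz1*, at -0.16 and -0.15 for *Ccl2* and -0.18 and -0.14 for *Ccl7*. The few Flt3+ cells, 13 on CD and 15 on HFD, which resemble dendritic cells by this marker alone, held *Ccl2* at 121 and 242 CPM and *Ccl6* at 1574 and 3374 CPM, lower than in any of the 7 populations of the same library. Cells with under 800 UMIs, 30 on CD and 147 on HFD, did not enter the correlations.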
